A study of Rattus norvegicus with 6 samples.

Results

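The genes described here move drugs and other foreign compounds across the colon epithelium, sense them or modify them chemically. The list named 10 genes, and 8 of them (Abcg2, Abcc2, Abcc3, Slc22a5, Nr1i2, Ahr, Cyp2d3 and Sult1b1) were found among the 17388 genes counted. Abcb1a and Cyp1a1 were not analysed here. Membership went by name, not by measured values. Single nuclei RNA sequencing (snRNA-seq) was performed on flash-frozen colon of male Wistar rats in 3 groups of 3. Sham rats drank water without dextran sulfate sodium (DSS) and received no capsules. Placebo rats drank 5% DSS for 3 days, which injures the colon epithelium, and were then given drug-free capsules by mouth 2 times a day for 4 days. PL8177 rats received the same DSS and, on the same schedule, capsules with 50 µg of PL8177, an agonist of the melanocortin 1 receptor. The nuclei used were those that the study had annotated as enterocytes, with its T cell nuclei as the comparison cell type. Expression is given as a level, the number of molecules of a gene, counted by their unique molecular identifiers (UMIs), per 10000 UMIs of all genes in a library. Intron reads were counted, so levels were not compared between genes.

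Enterocytes stand between the gut contents and the blood and limit how much of a swallowed compound gets through. Efflux pumps of the ABC family use ATP to export compounds: ABCG2 (BCRP) and ABCC2 (MRP2) on the side of the lumen, and ABCC3 (MRP3) on the side of the blood, where it carries glucuronides and bile acids. SLC22A5 (OCTN2) takes up carnitine, which cells need to burn fatty acids, and also carries cationic drugs. The pregnane X receptor, encoded by Nr1i2, and the aryl hydrocarbon receptor, encoded by Ahr, bind foreign or microbial compounds and switch on genes for transport and metabolism. CYP2D3 is a cytochrome P450 that oxidizes drugs, and SULT1B1 joins sulfate to phenols and thyroid hormones, which are then exported by pumps such as ABCG2.

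The promoters of Abcg2, Slc22a5, Sult1b1 and Cyp2d3 are shown because these 4 members were higher together in surface-like enterocyte nuclei, as described below. Each window covers 250 bases before and 50 bases after the start of the RefSeq gene on the build GRCr8 and is written 5′ to 3′ along the gene. Abcg2 lies at chr4:89075224-89075523 on the plus strand, Slc22a5 at chr10:38536023-38536322 on the minus strand, Sult1b1 at chr14:20771667-20771966 on the plus strand and Cyp2d3 at chr7:115802093-115802392 on the minus strand. Capitals mark matches on either strand to GCGTG, the core bound by AHR with its partner ARNT, to AGTTCA, a half-site of nuclear receptors such as PXR, and to TTTAT, the core bound by the intestinal CDX factors.
Abcg2: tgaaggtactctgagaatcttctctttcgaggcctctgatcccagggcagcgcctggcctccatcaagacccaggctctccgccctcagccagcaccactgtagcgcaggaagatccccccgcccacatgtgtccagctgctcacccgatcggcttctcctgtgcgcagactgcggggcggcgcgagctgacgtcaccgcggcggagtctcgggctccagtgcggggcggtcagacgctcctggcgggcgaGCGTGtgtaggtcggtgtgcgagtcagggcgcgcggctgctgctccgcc
Slc22a5: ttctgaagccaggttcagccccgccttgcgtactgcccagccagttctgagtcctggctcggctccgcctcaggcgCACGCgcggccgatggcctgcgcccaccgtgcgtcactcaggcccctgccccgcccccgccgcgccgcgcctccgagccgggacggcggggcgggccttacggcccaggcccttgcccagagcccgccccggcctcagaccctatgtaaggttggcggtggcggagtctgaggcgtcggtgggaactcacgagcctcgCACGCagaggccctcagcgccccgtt
Sult1b1: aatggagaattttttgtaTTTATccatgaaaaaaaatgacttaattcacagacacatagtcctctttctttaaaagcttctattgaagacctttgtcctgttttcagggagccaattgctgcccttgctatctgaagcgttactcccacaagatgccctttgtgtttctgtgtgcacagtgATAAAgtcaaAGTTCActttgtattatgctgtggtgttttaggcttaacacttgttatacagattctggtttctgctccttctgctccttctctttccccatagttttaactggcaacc
Cyp2d3: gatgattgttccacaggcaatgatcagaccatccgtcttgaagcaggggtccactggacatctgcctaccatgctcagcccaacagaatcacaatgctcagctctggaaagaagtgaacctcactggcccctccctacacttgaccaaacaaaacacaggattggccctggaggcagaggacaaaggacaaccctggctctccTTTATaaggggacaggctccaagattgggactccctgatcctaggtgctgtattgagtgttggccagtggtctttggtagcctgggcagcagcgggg

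The Abcg2 window held 1 GCGTG, at the start site itself, and the Slc22a5 window held 2, both on the reverse strand. The Sult1b1 window held 1 AGTTCA and 2 TTTAT, and the Cyp2d3 window held 1 TTTAT. Among all 33469 promoter windows of the same length, 29.7% held GCGTG, 14.5% held AGTTCA and 42.5% held TTTAT, so no motif was common to the 4 members and each was frequent elsewhere. The Abcg2 and Slc22a5 windows were rich in G and C, at 68.0% and 73.7%, with 29 and 35 CpG dinucleotides. The Sult1b1 and Cyp2d3 windows had 38.7% and 54.0% GC with 1 and 2 CpG, against medians of 51.7% and 7 over all windows. Of the other members with a window, Nr1i2 held 1 AGTTCA, Abcc2 held 2, and Ahr held none of the 3 motifs in a window of 74.7% GC. A match of letters is a description and not a bound site.

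The files held 8782 enterocyte and 1018 T cell nuclei from 9 libraries, told apart by the tag with which nucleus names begin, each tag being taken as 1 rat. Enterocyte nuclei numbered 304 to 1531 per library, with 319125 to 4123319 UMIs in total and a median of 437 to 2331 UMIs per nucleus. T cell nuclei numbered 19 to 685 per library, with 8307 to 779009 UMIs. There were 10 barcodes found in more than 1 library, and no nucleus was in both cell types. Of the 1018 T cell nuclei, 685 came from placebo library GR23. There, 2.13 of 10000 UMIs came from T cell markers, against 24.1 to 56.9 in the other 8 libraries, and 193 from enterocyte markers, against 15.3 to 75.4, so its T cell nuclei went against their label. Comparisons with T cells are therefore given with and without GR23. Enterocyte markers also exceeded T cell markers in the T cell nuclei of the PL8177 libraries, at 47.5 to 75.4 against 24.1 to 36.3. The same held for sham libraries GR13 and GR15, while sham GR12 and placebo GR22 and GR24 went the other way. In enterocyte nuclei, the level of enterocyte markers was 136 to 303 and that of T cell markers 0.156 to 0.846. Macrophage or dendritic cell markers reached 0.258 to 1.56 and goblet cell markers 1.16 to 3.88.

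The first comparisons asked whether these genes differed in enterocytes with DSS colitis or PL8177. Sham and placebo rats differed both in DSS and in capsules, which cannot be told apart here. None of the 7 members with enough UMIs to test passed the threshold of an adjusted p below 0.05 with an absolute log2 fold change above 0.5 (edgeR quasi-likelihood test, Benjamini-Hochberg adjustment over 9424 genes). The same test called 0% of all genes in either direction in each of the 3 comparisons, although 1172 genes had an unadjusted p below 0.05 between sham and placebo, 871 between PL8177 and placebo and 621 between PL8177 and sham. DESeq2 called 107 genes (1.14%), 50 genes (0.531%) and 4 genes (0.0424%), none of them a member. These p-values measure the spread between libraries, which are rats only if the tags are. A member that missed the threshold is not shown to be unchanged, and the intervals of log2 fold changes below give an approximate range of changes left possible. They were built from the SE with a normal quantile, which makes them somewhat too narrow for so few libraries.

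The efflux pump Abcg2 stood at 3.34, 3.23 and 2.36 UMIs per 10000 in the sham libraries, at 3.68, 2.29 and 2.48 in the placebo libraries and at 2.28, 4.13 and 2.38 in the PL8177 libraries. The 3 groups overlapped almost fully, and 1 PL8177 library was the highest of all 9. Relative to placebo, its log2 fold change was 0.23 (95% interval −0.34 to 0.80) in sham and 0.21 (−0.36 to 0.77) in PL8177. Abcc3, the pump facing the blood, had levels of 4.29, 4.05 and 4.26 in the sham libraries, while placebo had 4.12, 4.51 and 3.72 and PL8177 5.53, 4.76 and 3.95. Its sham libraries lay close together, with a mean of 4.20 ± 0.129 (SD, n = 3). Relative to placebo, Abcc3 differed by 0.19 (−0.20 to 0.58) in sham and 0.37 (−0.01 to 0.76) in PL8177 on the log2 scale. Abcc2 gave 5 UMIs in 5 of 8782 enterocyte nuclei, 3 in sham, 2 in placebo and none in 3359 PL8177 nuclei, which allows up to 0.110% of them with a UMI (exact 95% upper bound) and says nothing of nuclei that express the gene below this depth. Its share of enterocyte nuclei was 0.0569% (exact 95% interval 0.0185 to 0.133%) and its share of T cell nuclei outside GR23 0.601% (0.0728 to 2.15%, on 2 nuclei). The intervals overlap, and Abcc2 was not read as expressed or as absent.

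Slc22a5, the carnitine transporter, reached 0.958, 1.94 and 2.22 in the sham libraries, while placebo had 1.30, 1.22 and 2.12 and PL8177 0.475, 1.14 and 1.34. The lowest library was a PL8177 library, yet the PL8177 range overlapped those of both other groups. The mean was 1.71 ± 0.662 in sham, 1.55 ± 0.499 in placebo and 0.986 ± 0.453 in PL8177 (SD, n = 3 each). The log2 fold change of PL8177 was −0.51 relative to placebo (−1.34 to 0.32, adjusted p = 0.765) and −0.76 relative to sham (−1.60 to 0.07, adjusted p = 0.772, edgeR). Both intervals include no change.

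Of the sensors, Nr1i2 (PXR) gave 1.44, 3.41 and 2.52 in the sham libraries, while placebo had 1.94, 2.48 and 2.32 and PL8177 2.28, 1.99 and 2.48. Its lowest and highest libraries were both sham. Nr1i2 differed from placebo by a log2 fold change of 0.30 (−0.31 to 0.92) in sham and 0.18 (−0.43 to 0.79) in PL8177.

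Ahr was the 1 member whose placebo libraries stood apart from both other groups. Its level was 0.359, 0.313 and 0.373 in placebo, against 0.198, 0.134 and 0.0807 in sham and 0.302, 0.192 and 0.143 in PL8177. Every sham and every PL8177 library lay below every placebo library, while sham and PL8177 overlapped each other. The mean was 0.349 ± 0.0313 in placebo, 0.137 ± 0.0587 in sham and 0.212 ± 0.0815 in PL8177 (SD, n = 3 each). An exact permutation test gave p = 0.1 for both comparisons, the smallest value that 3 against 3 allows (two-sided). Of all genes tested, 14.3% had every sham library below every placebo library and 14.1% every PL8177 library, so the separation was frequent elsewhere. No member had all its sham or all its PL8177 libraries above placebo, as 5.36% and 4.7% of genes did, and none separated PL8177 from sham, as 6.02% of genes did upward and 6.01% downward. The log2 fold change was −1.09 in sham (−1.82 to −0.36, unadjusted p = 0.0120, adjusted p = 0.273) and −0.56 in PL8177 (−1.24 to 0.11, adjusted p = 0.660) by edgeR, and neither passed the threshold.

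The Ahr counts were small, with 73 UMIs in sham, 218 in placebo and 144 in PL8177. By library, sham gave 63, 6 and 4, placebo 142, 10 and 66, and PL8177 54, 79 and 11. At least 1 Ahr UMI was found in 2.72% of sham enterocyte nuclei (exact 95% interval 2.11 to 3.44%), 6.76% of placebo (5.88 to 7.72%) and 4.05% of PL8177 (3.41 to 4.77%). With each nucleus thinned to 300 UMIs, the shares were 0.271%, 1.30% and 0.666%. Taken by library, the thinned shares of PL8177 and placebo overlapped (p = 0.2, exact permutation test), while those of sham lay below placebo (p = 0.1). The exact intervals cover counting error only. T cells also use AHR, and T cell markers in enterocyte nuclei ranged from 0.392 to 0.846 of 10000 UMIs in placebo, 0.267 to 0.525 in sham and 0.156 to 0.361 in PL8177. Of the 12 T cell markers measured, 2 to 7 were at 0 in each library, 3 could be tested and 0 were called. The same test called 0% of all 9424 genes, so this count does not tell whether T cell markers differed. Relative to placebo, the log2 fold change of Bcl11b was −1.05 in sham and −0.74 in PL8177. That of Ptprc was 0.24 and −1.73, and that of Skap1 was 1.28 and −0.85. Without the nuclei that held a T cell marker UMI and the 5% deepest nuclei, the log2 fold change of Ahr was −1.03 (SE 0.412, adjusted p = 0.342) in sham and −0.59 (SE 0.379, adjusted p = 0.667) in PL8177. In nuclei with at least 500 genes it was −0.60 in sham (SE 0.492, adjusted p = 0.694).

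The drug-metabolizing enzymes showed no separation by treatment. Cyp2d3 gave 1.12, 0.935 and 0.585 in the sham libraries, while placebo had 1.20, 0.501 and 0.577 and PL8177 0.666, 1.35 and 1.09. Its log2 fold change relative to placebo was 0.32 (−0.43 to 1.08) in sham and 0.54 (−0.19 to 1.28) in PL8177. Reads may be shared between Cyp2d3 and the closely related genes beside it in the Cyp2d family, so its counts are uncertain in that respect. Sult1b1 gave 2.39, 2.36 and 1.66 in the sham libraries, while placebo had 2.07, 1.28 and 2.13 and PL8177 1.75, 2.32 and 2.44. The lowest Sult1b1 library was the placebo library GR23, and the log2 fold change was 0.36 (−0.18 to 0.90) in sham and 0.38 (−0.15 to 0.92) in PL8177. Over the 7 members, the median log2 fold change relative to placebo was 0.26 in sham and 0.21 in PL8177, where all genes tested had medians of −0.02 and −0.01.

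**Figure D1:**
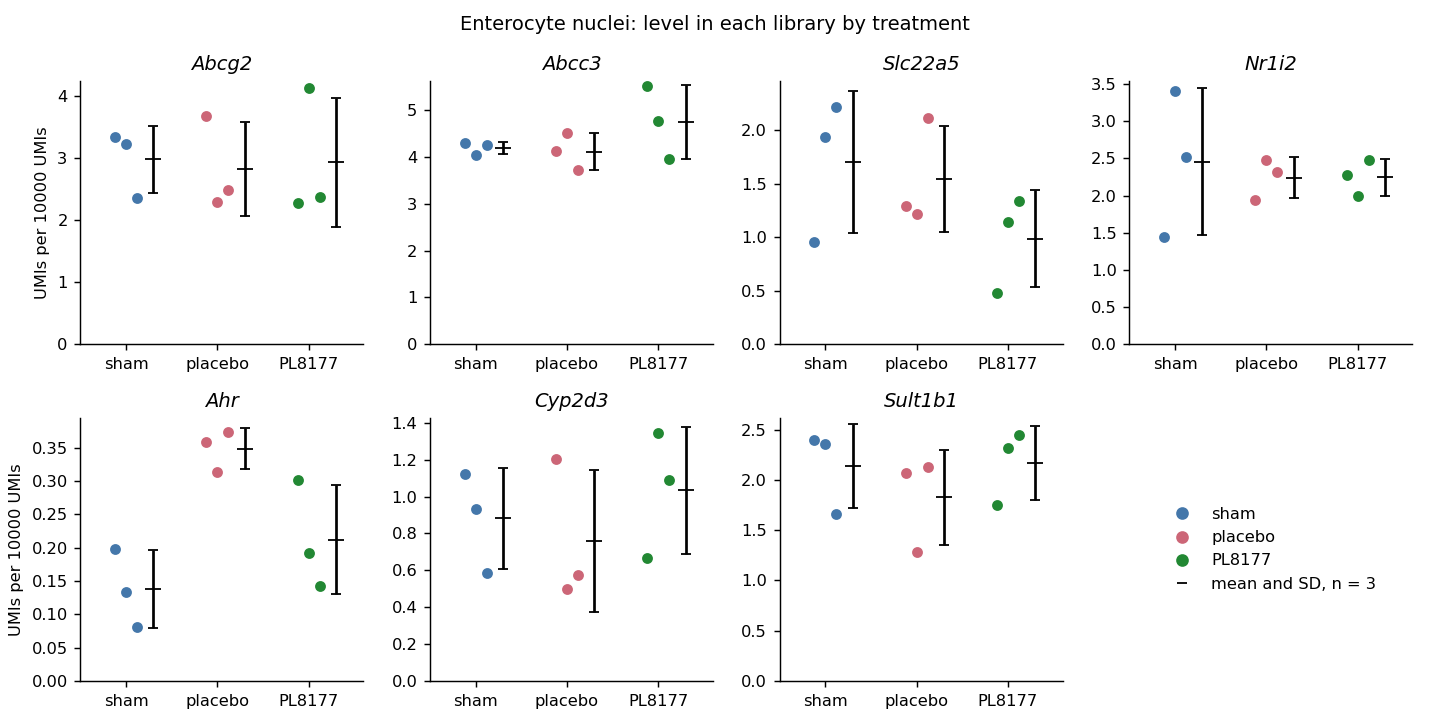
Level of 7 members in enterocyte nuclei, in UMIs per 10000 UMIs, with 1 point per library and the mean and SD of 3 libraries beside each group. The placebo points of Ahr, at 0.313 to 0.373, lie above all sham and PL8177 points, and the groups of the other 6 members overlap.

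The members were also compared along the path from crypt to surface. Colon enterocytes are born in crypts and mature as they move to the surface. The nuclei of each library were ordered by a score, the log of their UMIs of 12 surface markers (such as Slc26a3, Car4 and Krt20) less that of 14 crypt markers (such as Lgr5, Mki67 and Top2a), both per 10000 UMIs. None of the members was part of the score. The nuclei of each library were then cut into 3 terciles of equal size, and the upper and the lower are called the surface tercile and the crypt tercile, with 101 to 510 nuclei each per library. They are ranges of a score and not cell types, and 12.5% of nuclei lay within 0.1 of a limit. The split rested mainly on the surface markers, which made up 24.6 to 181 of 10000 UMIs in the crypt tercile and 222 to 614 in the surface tercile. The median nucleus of the crypt tercile held no crypt marker UMI in any library, and the median nucleus of either tercile held no T cell, goblet or macrophage marker UMI. With lists so sparse, a median of 0 does not show that the terciles were free of other cells. In the test described below, no T cell marker could be tested. The 1 macrophage or dendritic marker tested, Mrc1, was called higher in the surface tercile, by 2.58 on the log2 scale. Of 3 goblet markers tested, 1 was called, Spdef, lower by 1.10. A median nucleus held 377 to 1659 UMIs in the crypt tercile and 457 to 3620 in the surface tercile.

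Between the terciles, 4 of the 7 members tested rose toward the surface, 1 fell and 2 were not called, in an edgeR test with the library as a block. Of all 5133 genes tested, 26.6% were called higher and 28.2% lower in the surface tercile. The efflux pump Abcg2 rose. Its crypt tercile ranged from 0.661 to 2.30 with a median of 1.10, and its surface tercile from 3.18 to 5.93 with a median of 3.62, so the terciles did not overlap. Abcg2 was higher in the surface tercile of 9 of 9 libraries, where 11.4% of genes tested were, with a log2 fold change of 2.07 (SE 0.158, adjusted p = 6.10e-11). In the middle tercile the mean was 2.49 ± 0.885, between 1.30 ± 0.588 in the crypt tercile and 4.06 ± 1.00 in the surface tercile (SD, n = 9).

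Slc22a5 went from 0.703 ± 0.580 in the crypt tercile to 2.03 ± 0.878 in the surface tercile (SD, n = 9), higher in 9 of 9 libraries. Its log2 fold change was 1.97 (SE 0.195, adjusted p = 3.99e-09). The lowest surface tercile of Slc22a5, at 0.622 in PL8177 library GR41, lay below several crypt terciles of other libraries, so the rise held within libraries rather than across them. The enzymes rose as well. Cyp2d3 went from 0.433 ± 0.230 to 1.25 ± 0.490 (SD, n = 9), a log2 fold change of 1.96 (SE 0.173, adjusted p = 6.23e-10). Sult1b1 went from 1.26 ± 0.361 to 2.56 ± 0.458 (SD, n = 9), a log2 fold change of 1.36 (SE 0.119, adjusted p = 5.05e-10). Both were higher in the surface tercile of 9 of 9 libraries.

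Ahr, Abcc3 and Nr1i2 did not follow this pattern. Ahr fell toward the surface by 0.75 on the log2 scale (SE 0.233, adjusted p = 0.00688), from 0.318 ± 0.221 to 0.166 ± 0.109 (SD, n = 9). It was lower in the surface tercile of 7 libraries, higher in 1 and at 0 in both terciles of sham library GR13, on 145 UMIs in all crypt terciles and 135 in all surface terciles. The level of T cell markers was 0.297 to 1.54 in the crypt tercile and 0 to 0.508 in the surface tercile. Without nuclei that held a T cell marker UMI, Ahr went from 0.309 ± 0.215 to 0.171 ± 0.115 (SD, n = 9), lower in the same number of libraries, 7, but with too few UMIs to be fitted. Without the filter on low counts the fold change was −0.49 with an adjusted p of 0.0842, past the threshold no longer. Ahr had enough UMIs to be fitted in only 9 alternatives, against 16 or 17 for each other member, and kept its call in 8.

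Abcc3 was lower in the surface tercile of 9 of 9 libraries, as were 29.0% of all genes tested. It went from 5.61 ± 1.11 to 3.36 ± 0.526 (SD, n = 9), and its log2 fold change of −0.40 (SE 0.113, adjusted p = 0.00307) did not reach the threshold of 0.5. Nr1i2 went from 2.44 ± 0.661 to 2.04 ± 0.550 (SD, n = 9), higher in the surface tercile of 3 libraries and lower in 6. Its log2 fold change was 0.01 (SE 0.117, adjusted p = 0.945). Both depended on the scaling. With libraries scaled by total UMIs, which moved the median of all genes from −0.03 to −0.42 and left 774 genes called higher and 2368 lower, Abcc3 was called lower at −0.79 and Nr1i2 stood at −0.38 (adjusted p = 0.00456). Both values moved down by about as much as that median. Abcg2 at 1.69 and Ahr at −1.14 kept their direction and their call under this scaling.

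**Figure D2:**
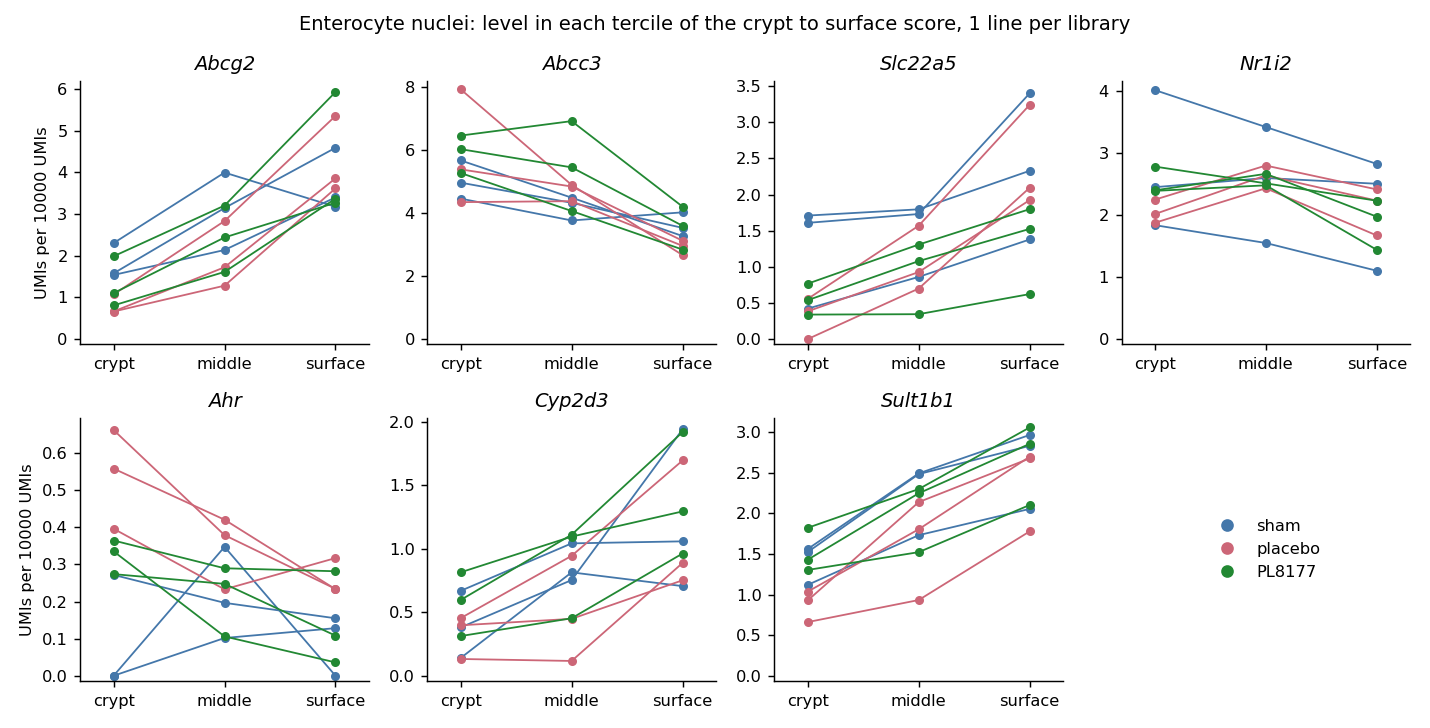
Level in UMIs per 10000 UMIs in the crypt, middle and surface tercile of the enterocyte nuclei, with 1 line per library and panels for 7 members. The lines of Abcg2, Slc22a5, Cyp2d3 and Sult1b1 end higher at the surface than they began in all 9 libraries, those of Abcc3 end lower in all 9, and Nr1i2 and Ahr are mixed.

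The rise of Abcg2 differed between sham and placebo. In the crypt tercile its level was 1.58, 2.30 and 1.54 in the sham libraries, while placebo had 1.07, 0.661 and 0.662 and PL8177 0.807, 1.99 and 1.10. Every sham library lay above every placebo library there, as for 8.57% of genes tested, and the means were 1.81 ± 0.431 and 0.798 ± 0.236 (SD, n = 3 each). In the surface tercile the level was 4.59, 3.18 and 3.40 in the sham libraries, while placebo had 5.36, 3.62 and 3.86 and PL8177 3.37, 5.93 and 3.27, with all groups overlapping. The surface to crypt log2 fold change was smaller in sham than in placebo by 1.27 on the log2 scale, written as a difference of −1.27 (SE 0.304, adjusted p = 0.0257, edgeR interaction). Of all 5133 genes, 70 passed this test, 3 with a larger and 67 with a smaller change in sham. Between PL8177 and placebo the difference was −0.71 (SE 0.293, adjusted p = 0.390), and between PL8177 and sham it was 0.56 (SE 0.286, adjusted p = 0.999).

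Surface markers moved in the same way. In the crypt tercile they made up 90.2 to 181 of 10000 UMIs in sham, 24.6 to 61.9 in placebo and 72.4 to 113 in PL8177, and their part in the Abcg2 difference was not tested. The Abcg2 difference lost its call with nuclei thinned to 300 UMIs (−1.51, adjusted p = 0.176). It also lost it without sham library GR13 (−1.06, adjusted p = 0.116), sham library GR15 (−1.29, adjusted p = 0.0682), placebo library GR22 (−1.41, adjusted p = 0.0598) or placebo library GR24 (−1.19, adjusted p = 0.111). Slc22a5 had a difference of the same sign that did not pass, −1.42 between sham and placebo (SE 0.385, adjusted p = 0.0557) and −1.27 between PL8177 and placebo (SE 0.386, adjusted p = 0.174). The remaining 5 members had differences between sham and placebo of −0.59 to 0.65, all with an adjusted p above that of Slc22a5. Ahr was below placebo in every sham library in both terciles, as were 12.8% of genes in the crypt tercile and 9.96% in the surface tercile. This rested on few Ahr UMIs. The crypt terciles held 20, 0 and 0 in sham and 48, 3 and 25 in placebo, and the surface terciles 19, 0 and 2 and 45, 5 and 19. Abcc3 was above placebo in every sham library in the surface tercile, as were 7.11% of genes, with means of 3.61 ± 0.382 and 2.91 ± 0.231 (SD, n = 3 each). Sult1b1 was above placebo in every sham library in the crypt tercile, as were 8.57% of genes. Its means there were 1.40 ± 0.245 in sham and 0.875 ± 0.193 in placebo (SD, n = 3 each).

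T cell nuclei served as the background. Of the 7 members tested, 6 were higher in enterocyte nuclei and Ahr was lower, in an edgeR test with the library as a block over 5194 genes, of which 20.7% were called higher and 13.3% lower in enterocytes. Abcg2 had levels of 0.124, 0 and 0 in the T cell nuclei of sham libraries, while placebo had 0.186, 4.62 and 0.264 and PL8177 1.61, 1.12 and 0.943. The value of 4.62 belonged to GR23 and was above that of its own enterocyte nuclei, 2.29. In the other 8 libraries Abcg2 was higher in enterocytes. Enterocytes exceeded T cells by a log2 fold change of 2.24 (SE 0.511, adjusted p = 0.00159) with GR23 and 3.24 without it. Sult1b1 was also higher in enterocytes of 8 of 9 libraries, by 2.01 (SE 0.409, adjusted p = 0.000544), or 2.86 without GR23.

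Abcc3 was higher in enterocytes of 9 of 9 libraries with the smallest fold change of the 6, 1.23 (SE 0.304, adjusted p = 0.00313), or 1.40 without GR23. Nr1i2, Slc22a5 and Cyp2d3 were each higher in 7 of 9 libraries, by 1.39 (SE 0.349, adjusted p = 0.00352), 1.46 (SE 0.477, adjusted p = 0.0203) and 1.58 (SE 0.520, adjusted p = 0.0215). Without GR23 they reached 1.89, 2.43 and 2.89. The T cell counts behind these values were small, with 8 to 110 UMIs per member in the other 8 libraries. The calls of Abcg2, Sult1b1 and Slc22a5 were lost with thinned nuclei, at 0.76, 1.06 and 0.59. Those of Slc22a5 and Cyp2d3 were also lost without sham library GR12, at 1.16 and 1.15.

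Ahr was the reverse. Its level in T cell nuclei was 1.58, 1.20 and 3.71 in the sham libraries, while placebo had 3.54, 0.462 and 1.32 and PL8177 2.82, 2.73 and 2.83, and 9 of 9 libraries had more in T cells than in enterocytes. The lowest T cell value, 0.462, was that of GR23. The log2 fold change of enterocytes over T cells was −2.88 (SE 0.363, adjusted p = 1.92e-06), a level 7.34-fold lower in enterocytes, and −3.01 without GR23. With T cell nuclei limited to the 239 that held a T cell marker UMI and no more enterocyte marker UMIs, Ahr reached −3.23 and Abcg2 4.28. That alternative was added after seeing the data.

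With the T cell nuclei of GR23 left out, shares of nuclei had the same direction for all 7 members. At least 1 UMI was found in 27.6% of the enterocyte nuclei of all 9 libraries and 3.90% of the T cell nuclei outside GR23 for Abcg2, in 24.6% and 5.11% for Sult1b1, in 26.8% and 6.91% for Nr1i2, in 14.7% and 3.90% for Slc22a5 and in 13.2% and 2.40% for Cyp2d3. For Abcc3 the shares were 42.3% and 18.3%, and for Ahr 4.59% and 18.3%. The median nucleus held 1085 UMIs in enterocytes and 754 in these T cells. Thinned to 300 UMIs, the shares were 6.84% and 1.97% for Abcg2, 12.3% and 3.29% for Abcc3 and 0.779% and 6.91% for Ahr. With the T cell nuclei of GR23 included, the thinned T cell shares were 9.21% for Abcg2, 4.71% for Slc22a5 and 6.81% for Nr1i2. These lay above the thinned enterocyte shares of 6.84%, 3.50% and 6.69%, while Abcc3, Sult1b1, Cyp2d3 and Ahr kept their direction. In the T cell nuclei of GR23, with a median of 742 UMIs, Abcg2 was found in 30.7%, Abcc3 in 29.3%, Nr1i2 in 25.3%, Slc22a5 in 16.1% and Ahr in 4.96%. No member passed the test of whether the difference between cell types depended on treatment, nor did any of the 5194 genes tested with GR23. Without GR23, 4 of 5129 genes passed between sham and placebo, 3 between PL8177 and placebo and 5 between PL8177 and sham. A test that calls so few genes tells little about the members. Between sham and placebo the difference was 3.83 for Abcg2 (SE 1.30, adjusted p = 0.713) and 3.49 for Slc22a5 (SE 1.24, adjusted p = 0.713) with GR23, and 1.21 (SE 1.33) and 1.43 (SE 1.36) without it. Without GR23, which leaves 2 placebo libraries, Abcg2 differed by −3.39 between PL8177 and sham (SE 0.956, adjusted p = 0.146), and no member passed. T cell nuclei of the PL8177 libraries held more enterocyte than T cell marker UMIs, and their part in this value was not tested.

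**Figure D3:**
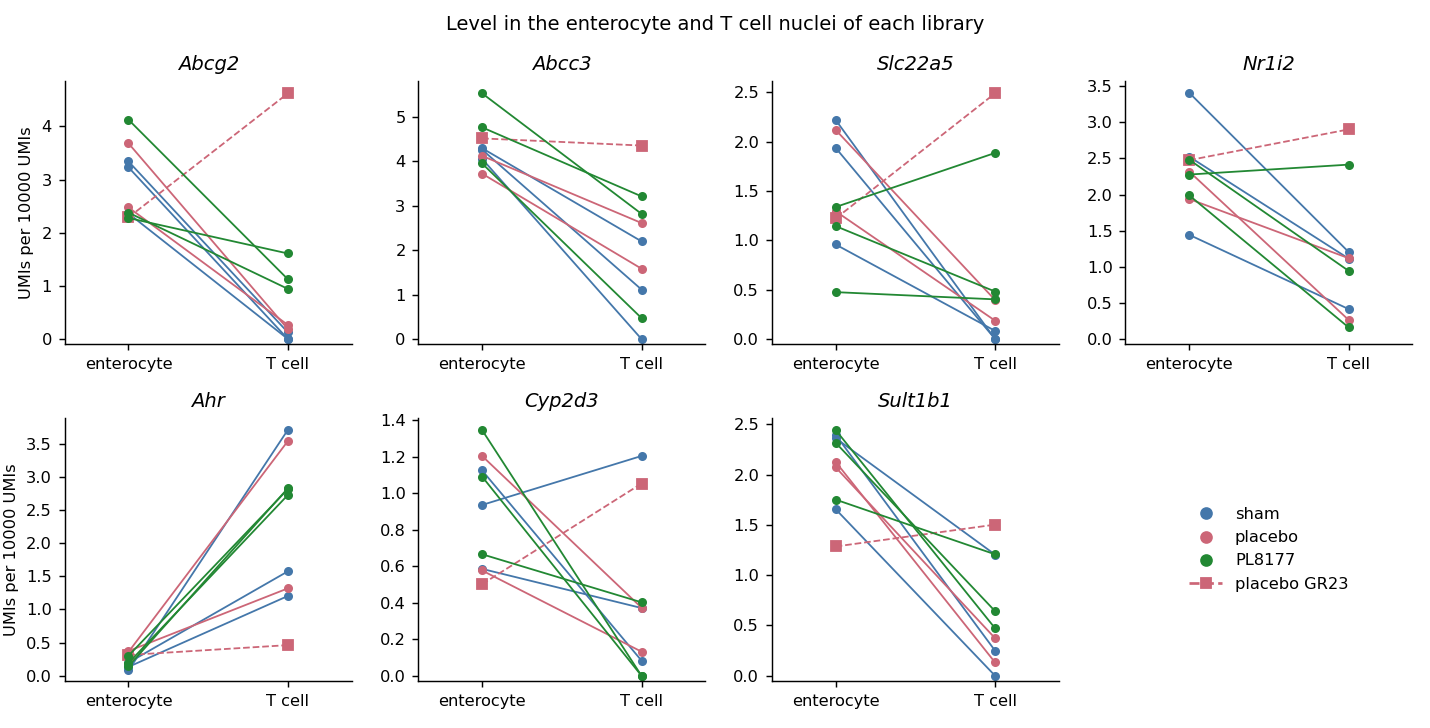
Level in UMIs per 10000 UMIs in the enterocyte and the T cell nuclei of each library, joined by a line, with placebo library GR23 drawn as squares and a dashed line. Ahr rises from enterocytes to T cells in every library, the other 6 members fall in most libraries, and the GR23 line of Abcg2 rises from 2.29 to 4.62.

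**Figure D4:**
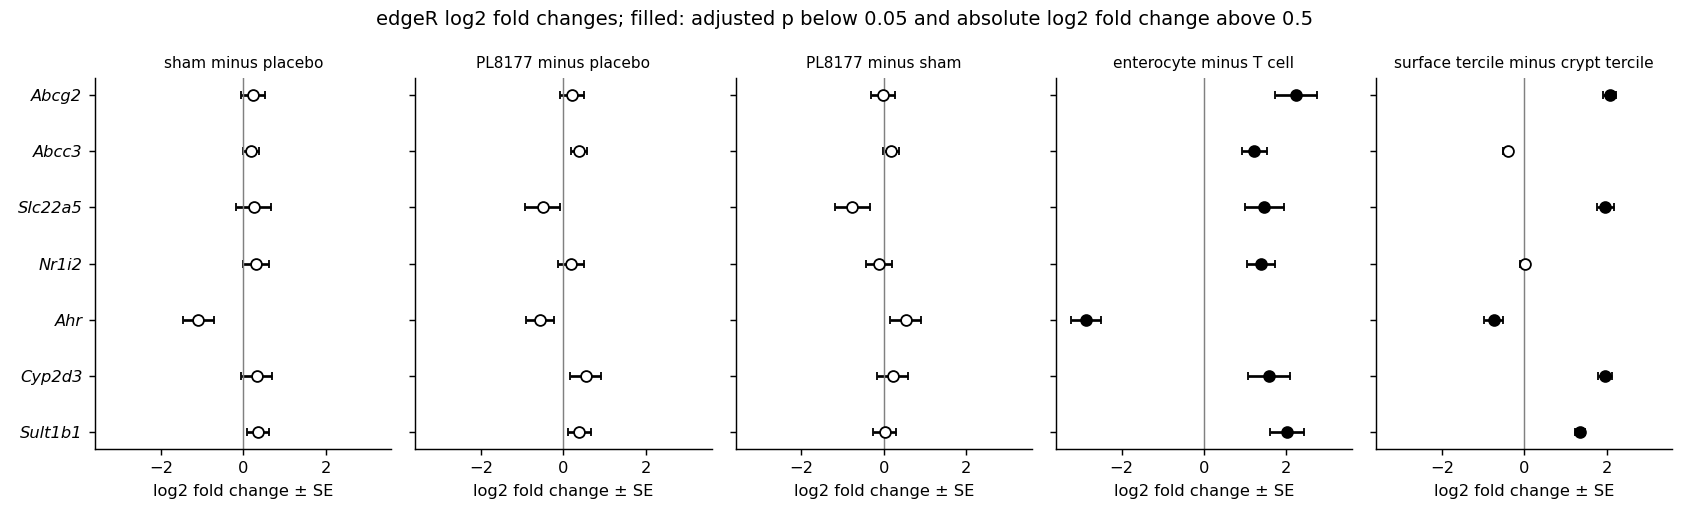
edgeR log2 fold change ± SE of 7 members in 5 comparisons, filled where the adjusted p was below 0.05 and the absolute log2 fold change above 0.5. No point is filled in the 3 treatment comparisons, all 7 are filled between enterocytes and T cells, and 5 are filled between the surface and the crypt tercile.

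Other genes of drug handling were followed in 6 lists. None of their genes was called between treatments by edgeR. The lists gave 6 efflux transporters, 10 uptake transporters, 14 sensors and partners, 2 AHR target genes, 19 phase 1 enzymes and 17 phase 2 enzymes that could be tested. At an unadjusted p below 0.05 there were 3 sensors, 2 phase 1 enzymes, 2 phase 2 enzymes and 1 uptake transporter between sham and placebo, where 12.4% of all genes tested passed that limit, and 2 sensors, 1 AHR target gene, 2 phase 1 enzymes and 3 phase 2 enzymes between PL8177 and placebo, where 9.24% did. Relative to placebo, the median log2 fold change in sham ran from −0.62 for the 2 AHR target genes to 0.07 for the sensors. The AHR target Tiparp stood at −0.62 in sham (SE 0.352, adjusted p = 0.475) and −0.23 in PL8177 (SE 0.338, adjusted p = 0.889), and Nqo1 at −0.61 and −1.83, also short of the threshold. Arnt, the partner of AHR on DNA, stood at 0.87 in sham (SE 0.237, adjusted p = 0.195) and 0.58 in PL8177 (SE 0.234, adjusted p = 0.487). It was chosen after its values were seen. Hnf4a, a liver and gut transcription factor, stood at 0.97 in sham (SE 0.376, adjusted p = 0.337), and Vdr, the vitamin D receptor, at 0.47 (SE 0.203, adjusted p = 0.384).

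Along the crypt to surface score, where 26.6% of all genes tested were called higher and 28.2% lower, the lists were small and most held both directions. In the first list, 1 of 3 efflux transporters rose, Abcb4 by 2.61. ABCB4 is known as the phospholipid pump of bile. Abcc5 stood at −0.27, below the threshold. Of 4 uptake transporters, 2 rose and 2 fell, leaving out Slc51a, whose rise is fixed because it is one of the surface markers of the score. The prostaglandin transporter Slco2a1 rose by 2.03 and Slc22a23 by 0.84. Slco2b1 fell by 2.87 and Slc22a18 fell by 0.57. Among 11 sensors and partners, Arnt2 at 2.70 and Vdr at 1.16 rose, Keap1 at −1.01 fell, and Hnf4a at 0.13 was not called.

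The only AHR target gene that could be tested, Tiparp, rose by 1.46, in the direction opposite to Ahr itself. The TIPARP protein limits AHR activity. Of 8 phase 1 enzymes, 5 rose and 1 fell, the largest changes being those of Cyp3a9 at 2.20, Akr1b8 at 1.37 and Por, the electron donor of the P450 enzymes, at 1.29. Of 10 phase 2 enzymes, 2 rose and 4 fell. Among them, Papss1, which makes the sulfate donor used by SULT1B1, rose by 1.07 and Nat2, an arylamine acetyltransferase, rose by 0.97. Ugt1a1, which adds glucuronic acid to bilirubin, fell by 0.53. By median, the members stood at 1.36, the 4 uptake transporters at 0.14, the phase 1 enzymes at 0.83, and the efflux transporters, sensors and phase 2 enzymes within 0.04 of 0, with all genes at −0.03.

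Between enterocytes and T cells, these genes are given with GR23 and then without it, which raised the share of all genes called from 20.7% to 31% higher and from 13.3% to 23.2% lower in enterocytes. The efflux transporter Abcb4 was higher in enterocytes by 1.59 and 2.09. Of the uptake transporters, Slco2a1 (1.97 and 2.81), Slc22a23 (1.95 and 2.35) and Slc22a18 (1.29 and 1.46) were higher and Slco3a1 (−5.13 and −5.67) was lower. Without GR23, Slc51a (2.80) was also called higher and Slc28a2, a nucleoside transporter (−4.32), lower.

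Of 10 sensors and partners, Nr1h4, the bile acid receptor (1.68 and 1.97), Vdr (1.64 and 2.03) and Hnf4a (1.47 and 1.68) were higher, joined by Arnt2 (1.54) without GR23. The AHR repressor Ahrr (−5.87 and −6.10), itself an AHR target gene, was lower like Ahr. Of the phase 2 enzymes 6 were higher and none lower both with and without GR23, among them Papss1 (2.002 and 2.53), Nat2 (1.99 and 3.34) and Nat1 (1.398 and 2.14). Of 3 phase 1 enzymes Cyb5r3 (1.73 and 2.98) was called higher, and without GR23 also Cyp27a1 (1.10), with Adh1 (−0.999) lower. The values without GR23 were added after seeing the data.

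**Figure D5:**
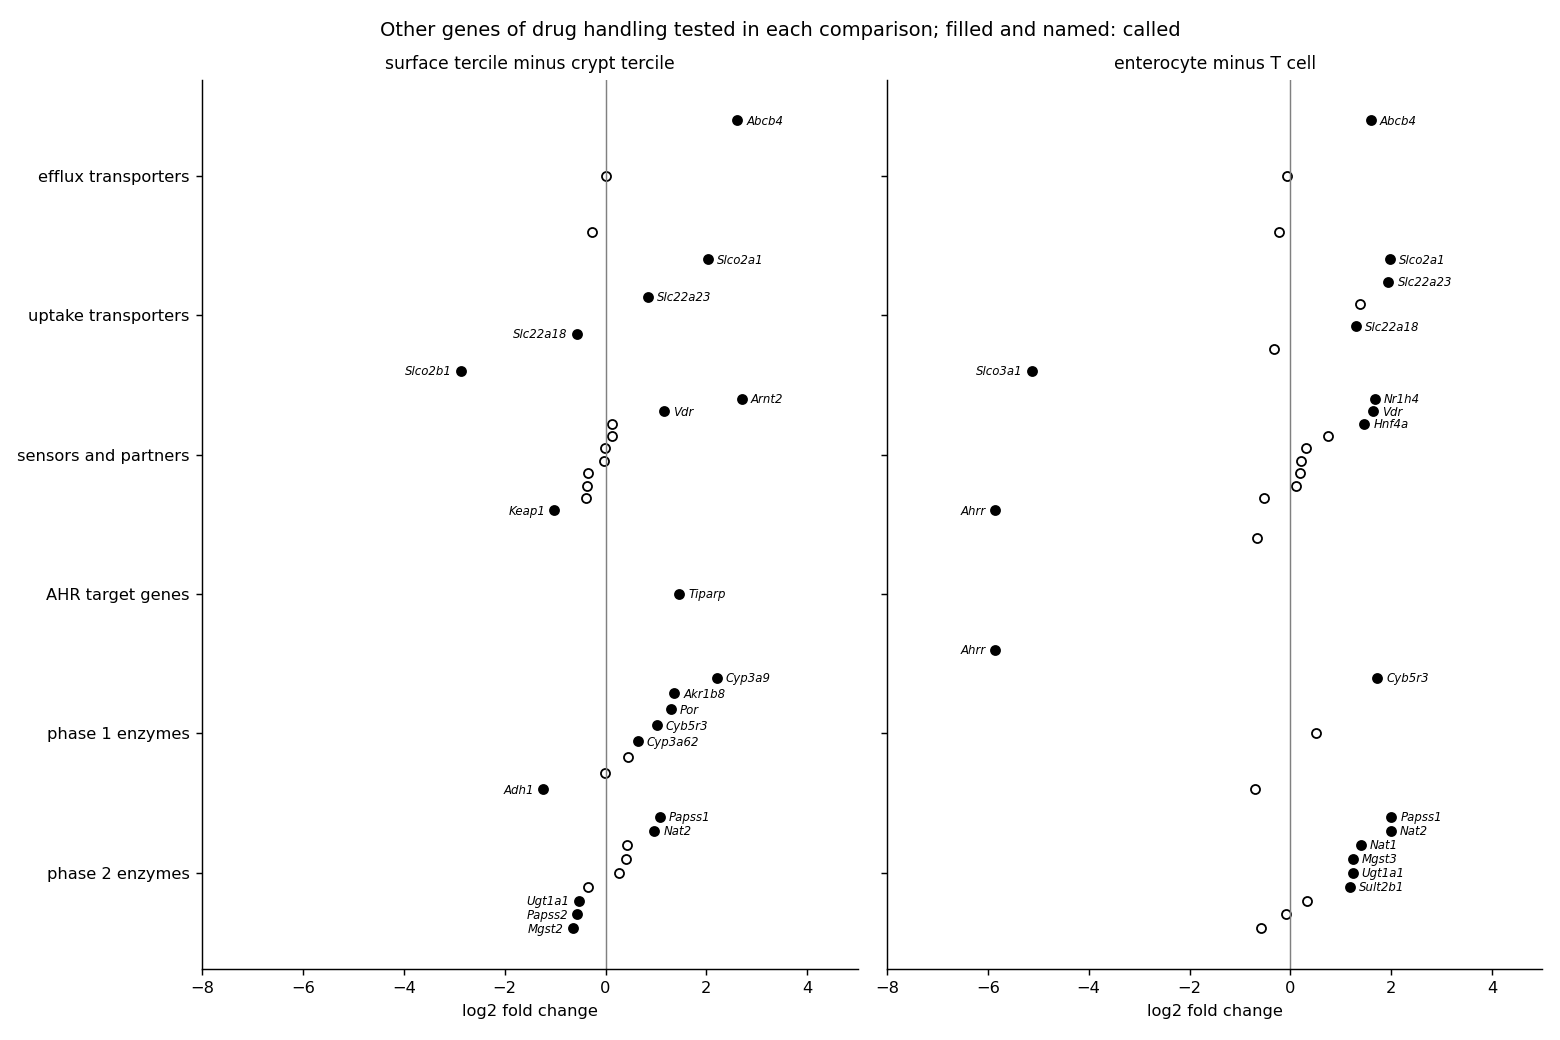
edgeR log2 fold change of the other genes of drug handling, 1 point per gene tested and grouped by list, with called genes filled and named and Slc51a, a surface marker, left out of the surface panel and a few genes not shown, GR23 included. Abcb4, Arnt2 and Cyp3a9 lie furthest to the right between the terciles, and Ahrr and Slco3a1 furthest to the left between cell types.

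The genes whose enterocyte level followed each member most closely over the 9 libraries, by Pearson correlation of log2 CPM among the 9424 genes tested, were Selenok (0.942), Cnpy2 and Rab8a for Abcg2, and Pgm2 (0.969), Atp7a and Ip6k2 for Abcc3. For Slc22a5 they were Gucy2c (0.956), Vegfa and Pofut1. The sensors were followed by Agpat5 (0.956), Lad1 and Ing4 for Nr1i2, and by Prpsap2 (0.975), Pdia6 and Cstf2 for Ahr. The enzymes were followed by Ghitm (0.9499), Dsg2 and Rfk for Cyp2d3, and Rpl18 (0.972), Tubb5 and Lbh for Sult1b1. The points share libraries and depth, and the highest of so many correlations over 9 libraries is large for any gene, so these are descriptions.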

How the data were processed

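Nuclei of 9 rat colons were profiled with 10x Genomics chemistry. The authors counted UMIs per gene with Cell Ranger 6.0.1, introns included, on the rat genome Rnor 6.0, applied CellBender, filtered genes and nuclei and annotated cell types from Seurat 4.0.3 clusters. The values they deposited are whole UMI counts per gene and nucleus, not normalized for depth, for the enterocytes and T cells of each treatment. Counts were summed per library, told by the tag that opens a nucleus name, since the labels do not list the rats. The 3 tags per treatment were treated as replicates. The incomplete last line of the placebo T cell table was left out, so that table holds 15108 of 17388 genes, cell types were compared over those, and levels in its T cells have a slightly smaller total. No doublet caller was run. Nuclei with T cell markers and the 5% deepest nuclei were left out as an alternative.

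The main test was the quasi-likelihood test of edgeR 4.0.16 (R 4.3.3) after filterByExpr and TMM scaling, with the treatments in 1 fit and the cell types and terciles with the library as a block. The alternatives were DESeq2 1.42.0, no filter, thinning to 300 UMIs, other scalings, other limits of the score and each replicate left out. Scipy 1.17.1, numpy 2.4.6, pandas 2.3.3 and matplotlib 3.10.9 under Python 3.11.15 served for levels, exact Clopper-Pearson intervals, exact two-sided permutation tests and figures. The tests were tried on simulated counts. Replicates differed by 5.78 to 22.0 times the sampling noise (chi-square per degree of freedom), so none was a duplicate. Promoters came from RefSeq (GRCr8), where 8 of the 10 genes matched, and not from the build of the counts.

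The members, gene lists and tests were chosen with earlier results of these data known. Named were all members, in each list the called genes (the 3 largest changes where over 5 were called) and the 2 genes of highest level, and the 3 genes most correlated with each member. Some genes of the lists are not reported here by name. Genome sequence and other cell types were not used here.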

Additional observations from a re-analysis of the deposited data

Results flagged for a closer look

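The surface to crypt change of Abcg2 differed between sham and placebo. It was smaller in sham by a difference of −1.27 on the log2 scale (SE 0.304, adjusted p = 0.0257 over 5133 genes, edgeR interaction), where 70 genes passed the same test, 67 of them with a smaller change in sham. The crypt tercile held 1.58, 2.30 and 1.54 UMIs of Abcg2 per 10000 in sham and 1.07, 0.661 and 0.662 in placebo. Surface markers in the crypt tercile were also higher in sham, at 90.2 to 181 against 24.6 to 61.9 of 10000 UMIs, and their part in the difference was not tested. The call was lost with thinned nuclei (adjusted p = 0.176) and without any 1 of 4 libraries, sham GR13 (0.116), sham GR15 (0.0682), placebo GR22 (0.0598) or placebo GR24 (0.111).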

How the results depend on the processing

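Treatments were compared without pairing, since each tag occurred in a single treatment. Between treatments, no member passed the threshold under any alternative it could be fitted in, and Ahr kept its direction in 16 alternatives relative to placebo, from −1.54 to −0.60 in sham and −0.88 to −0.40 in PL8177. The number of genes called between sham and placebo, 0 in the report, was 107 with DESeq2, 51 without the filter, 14 with thinned nuclei, 10 without T cell marker nuclei and the 5% deepest, 5 with total UMIs and 0 to 8 with 1 replicate left out, 8 without PL8177 replicate 3. Between PL8177 and placebo it was 50 with DESeq2 and 8 without the filter. Between PL8177 and sham it was 4 with DESeq2, 10 without the filter and 0 to 2 with 1 replicate left out.

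Small values changed sign. Between sham and placebo these were Abcc3 thinned (−0.15), Nr1i2 without sham replicate 2 (−0.10, with 0.62 the highest with 1 replicate left out), and Abcg2 (−0.14) and Slc22a5 (−0.026) in the surface tercile of nuclei. Between PL8177 and placebo these were Abcc3 thinned (−0.072), Abcg2 without PL8177 replicate 2 (−0.10, with 0.46 the highest with 1 left out) and Nr1i2 in the surface tercile (−0.093). Between PL8177 and sham, Sult1b1 turned with DESeq2 (−0.0030), thinned nuclei (−0.27), RLE factors (−0.0020) and mixed nuclei left out (−0.046), and ran from −0.16 to 0.17 with 1 replicate left out. Abcg2 turned without the filter (0.047), with mixed nuclei left out (0.042) and in the surface tercile (0.17), and ran from −0.33 to 0.14. Abcc3 turned in the surface tercile (−0.018). With 1 replicate left out, Nr1i2 ran from −0.44 to 0.29 and Cyp2d3 from −0.020 to 0.47.

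Between enterocytes and T cells, the 1769 genes called became 3881 without the filter, 499 with thinned nuclei and 1160 to 2780 with 1 replicate left out, with 1160 without sham replicate 1 and 2780 without placebo replicate 2. Of 103 values of members, 95 stayed called and 8 fell short of the threshold. These were the 5 given in the report, Slc22a5 without sham replicate 3 (1.27) and without placebo replicate 3 (1.29), and Cyp2d3 without PL8177 replicate 2 (1.31). Total UMIs left 711 genes higher and 1130 lower. Between the terciles, the 2812 genes called became 5391 without the filter, 1186 with thinned nuclei and 2514 to 3504 with 1 replicate left out. Nr1i2 turned with thinned nuclei (−0.050), surface markers only (−0.00092), T cell marker nuclei left out (−0.037) and total UMIs (−0.38), and ran from −0.071 to 0.10 with 1 replicate left out. The Abcg2 difference between sham and placebo was −1.51 thinned and −1.64 to −1.06 with 1 replicate left out. Total UMIs, RLE factors between cell types and terciles, and terciles without T cell marker nuclei were chosen after seeing the data. The causes of these changes were not tested. Ahr and the T cell values rest on small counts.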
